A study of Homo sapiens with 6 samples.

Results

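Of the 32037 accessible regions found in CCRF-CEM leukaemia cells and their SLFN11-knockout derivative, 229 had an ATAC-seq peak in all 3 knockout libraries and in none of the 3 parent libraries. They make up 0.715% of the regions (Wilson 95% interval 0.628 to 0.813%). A region is a stretch of the genome formed by merging peaks that overlap by at least 1 bp in any of the 6 peak lists on chromosomes 1 to 22 and X. These 229 are called knockout-only regions below, and they were chosen by the presence and absence of peaks, so their peak values are descriptions and carry no test.

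CCRF-CEM is an established human T lymphoblast line. The 6 libraries are SLFN11 gene knockout cells given DMSO, SLFN11 gene knockout cells given 100 nM camptothecin for 2 h, SLFN11 gene knockout cells given 100 nM camptothecin for 4 h, and wild-type parent cells given the same 3 treatments, with 1 library for each combination. All cells were grown in the same medium, and DMSO is the solvent. The labels do not say how the knockout was made or how many clones it comprises, so line and genotype cannot be told apart. The library codes inside the peak lists matched the code in the sample title for 0 of 6 samples. The libraries are named KO-DMSO, KO-2h, KO-4h, P-DMSO, P-2h and P-4h here, after the knockout or parent (P) sample that each list is filed with. Going by the codes instead, KO-DMSO would be the 2 h library, KO-2h the 4 h library and KO-4h the DMSO library, and likewise in parent cells. Membership needs all 3 lists of each genotype and is the same whichever list belongs to which treatment.

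In ATAC-seq a transposase inserts sequencing adapters where DNA is not wrapped in nucleosomes, so that reads pile up over promoters, enhancers and other sites held open by bound proteins. Camptothecin traps topoisomerase I on DNA and stalls replication forks. SLFN11 is a helicase-like protein that is recruited to stalled forks, blocks their further progress and has been linked to opening of chromatin under replication stress; cells without it survive such drugs better. A peak in all 3 knockout libraries is one found both with and without the drug. In a bulk library a weaker peak may mean fewer cells with an open site or less opening per cell, and these cannot be told apart. Genes, SLFN11 and the T cell markers among them, were not located here, because the peaks lie on hg19 and no hg19 annotation or genome sequence was used.

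The lists differ in length. KO-DMSO, KO-2h and KO-4h held 20894, 19167 and 19289 peaks, and P-DMSO, P-2h and P-4h held 23665, 21617 and 14205, so P-4h stands apart with the fewest. Read totals were not used here. The number of reads stacked at a peak's summit, called pileup below, could be recovered from the deposited fold enrichment and p-value, and the lowest pileup that passed as a peak was 8 reads in every list. A signal under that level does not appear in a list, and over a high local background more reads are needed to pass. Absence from the parent lists therefore means that no peak passed over the local background at this depth, and not that the site was closed.

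Peaks of knockout-only regions were lower than those of regions held by all 6 lists, as were those of parent-only regions, the mirror image with a peak in all 3 parent lists and no knockout list. The fold enrichment is the authors' ratio of summit pileup to local background, with the same small count added to each. The added count lowers the ratio most where background is low. The fold had a median of 4.96 in KO-DMSO, 4.95 in KO-2h and 4.85 in KO-4h. Regions held by all 6 lists had medians of 7.25, 6.77 and 6.92 in the same 3 knockout lists. Parent-only regions had medians of 5.09, 4.99 and 4.42 in P-DMSO, P-2h and P-4h, at percentiles 30.0, 27.9 and 20.9 of those lists, where the knockout-only medians stood at percentiles 34.4, 34.8 and 31.1 of theirs. Median pileup over knockout-only regions was 13, 13 and 12 reads, against 30, 24 and 26 reads at the regions held by all 6 lists. The lowest of a region's 3 pileups was between 8 and 11 reads in 143 of the 229 regions (62.4%), and at least 16 reads in 18 (7.86%). The fold of 58, 60 and 55 of the 229 exceeded the median fold of the whole KO-DMSO, KO-2h and KO-4h list.

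**Figure D1:**
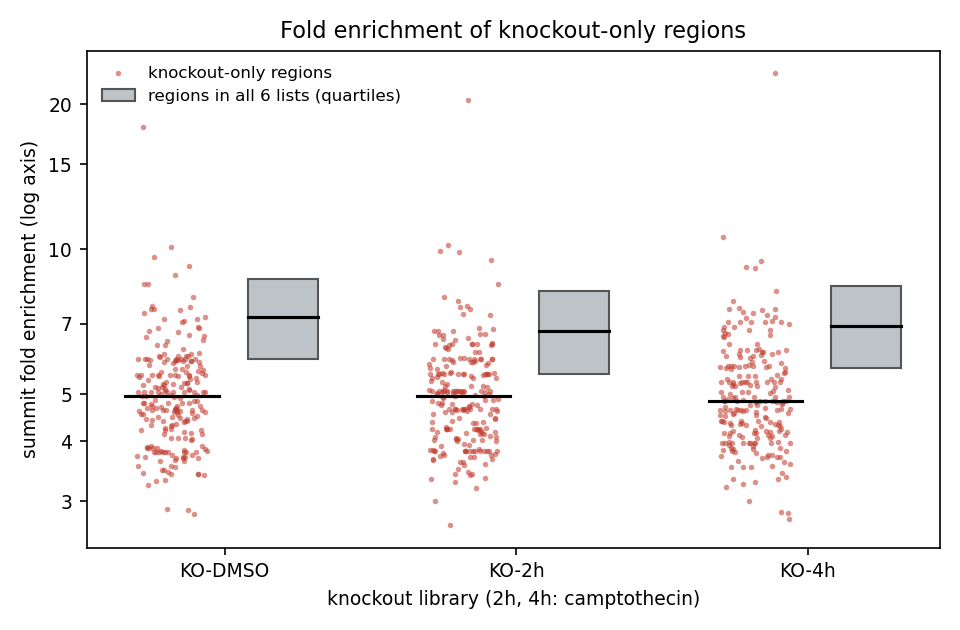
Fold enrichment at the summit (log axis) of the 229 knockout-only regions in each knockout library, 1 red point per region with the median as a black line; grey boxes give the quartiles and median of the 11070 regions held by all 6 lists. The red medians lie between 4.85 and 4.96 and the grey medians between 6.77 and 7.25, with 1 region near 20-fold in every library.

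The highest fold of a region over the 3 knockout libraries was less than 1.5 times its lowest in 178 of 229 regions and more than 2 times in 3. Each fold is relative to its own library's background. The ratio is not given for other classes, and the rule needs a peak in all 3 knockout lists. It is therefore not read as a trait of these regions. Summits of the 3 lists lay within 50 bp of each other in 63 regions (27.5%), close to the 31.5% found over the same lists for regions held by all 6. The median spread of the summits was 90 bp, against 77 bp for those shared regions. Several summits within the region were listed in 4.80%, 5.68% and 2.18% of knockout-only regions, against 42.4%, 39.3% and 39.2% of the shared regions, in KO-DMSO, KO-2h and KO-4h.

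By median, knockout-only regions were narrower than parent-only regions, regions held by all 6 lists and all regions together. They were wider than regions in 2 knockout lists and no parent list, which had a median of 278.5 bp. The knockout-only median was 358 bp, with quartiles of 290 and 434 bp. It was 444 bp for the 99 parent-only regions, 784 bp for regions held by all 6 lists and 438 bp for all regions. The parent-only regions make up 0.309% of all regions. Of the knockout-only regions 166 (72.5%) were at least 300 bp wide and 5 (2.18%, interval 0.936 to 5.01%) were no wider than 170 bp. No parent-only region was that narrow (0 of 99, where 3 counts of 99 allow a share of up to 3.03%), and 11.2% of all regions were. The share was 0.877% (0.574 to 1.34%) for regions called in 3 of the 6 lists in a mixture of both genotypes. It was 0.163% for regions held by all 6 lists and 5.79% for regions in 2 knockout lists and no parent list. A region's width is the span of its merged peaks, from 3 lists for knockout-only regions and 6 for regions held by all 6 lists. In 51.1% of knockout-only regions the narrowest of the 3 peaks was 170 bp or less. That share is of single peaks, is not given for other classes and cannot be set against the shares of merged spans above.

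**Figure D2:**
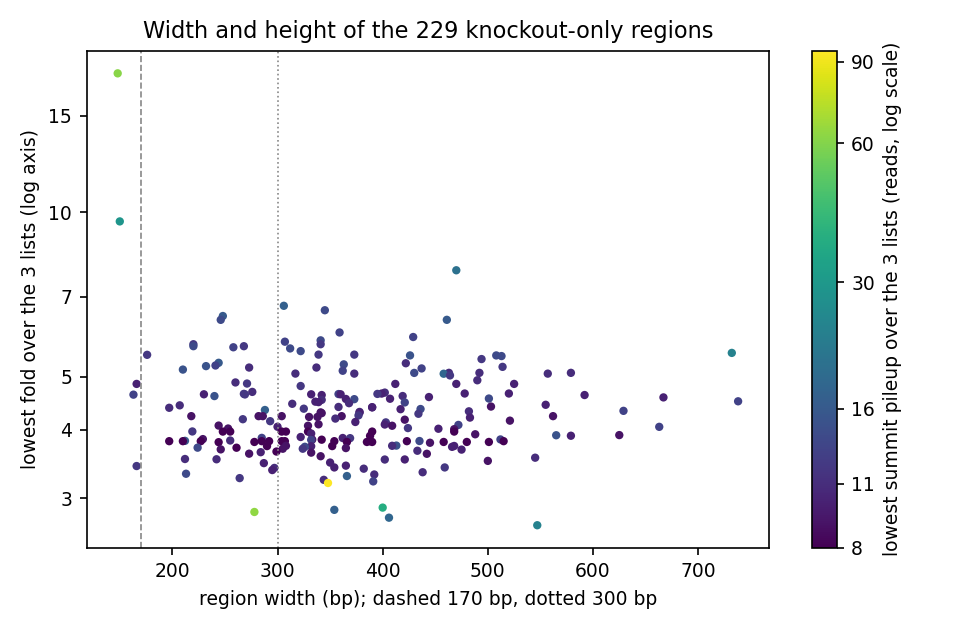
Width in bp of each of the 229 knockout-only regions against its lowest fold enrichment over the 3 knockout lists (log axis), coloured by its lowest pileup in reads; lines mark 170 and 300 bp. The highest 2 points, at 17.9 and 9.62-fold, are both narrower than 170 bp, and the regions with the most reads near 3-fold lie over a high local background.

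The tallest knockout-only region was also the narrowest, 148 bp on chromosome 6, 119558556 to 119558703 of hg19. It had 61, 72 and 79 reads at its summit in KO-DMSO, KO-2h and KO-4h, and 17.9, 20.4 and 23.2-fold enrichment. Its 3 summits fell within 6 bp, and the nearest parent peak was 19559 bp away. The next, 150 bp on chromosome 7, 155142954 to 155143103, had 29, 33 and 33 reads and summits within 4 bp. The other narrow ones lay on chromosome 5, 113573620 to 113573785, chromosome 3, 187697491 to 187697653, and chromosome 16, 29040697 to 29040862, with a lowest fold of 4.85, 4.64 and 3.43. Repeats and poorly mapped stretches were not filtered out, and whether the narrow peaks mark open chromatin was not tested.

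Among regions at least 300 bp wide, the leading region was 470 bp on chromosome 7, 13840523 to 13840992. Its summit held 21, 26 and 20 reads in KO-DMSO, KO-2h and KO-4h, at 7.97, 9.52 and 7.83-fold, and its 3 summits fell within 10 bp. A 461 bp region on chromosome 3, 190024381 to 190024841, held 27, 16 and 23 reads at 10.1, 6.35 and 9.15-fold. A 306 bp region on chromosome 10, 85836428 to 85836733, held 17, 20 and 17 reads. These are the wide regions whose 3 summits all carried at least 16 reads among the leading 10, and each was at least 4605 bp from any parent peak.

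The remaining leading wide regions rested on fewer reads in at least 1 library. On chromosome 15, 48332442 to 48332786, pileup was 24, 19 and 14 reads in KO-DMSO, KO-2h and KO-4h, and on chromosome 5, 128988465 to 128988823, it was 24, 17 and 13. Chromosome 7, 46054899 to 46055327, held 13, 15 and 13 reads, and chromosome 1, 171853082 to 171853422, held 15, 14 and 18. The library of highest pileup was not the same in these 4 regions. Chromosome 2, 166005940 to 166006246, held 13, 16 and 18 reads, chromosome 3, 110565765 to 110566105, held 13, 20 and 12, and chromosome 5, 127272301 to 127272612, held 14, 14 and 16. Regions somewhat under 300 bp reached similar heights. Chromosome 13, 102783639 to 102783886, held 16, 23 and 17 reads at 6.46, 9.93 and 7.53-fold, and chromosome 8, 97866240 to 97866485, held 20, 14 and 17 reads at 8.46, 6.35 and 6.80-fold.

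The widest knockout-only region spanned 738 bp on chromosome 12, 92603630 to 92604367, with 13, 15 and 13 reads and summits spread over 177 bp. The second, 732 bp on chromosome 5, 1098155 to 1098886, was both wide and well covered. It held 29, 27 and 24 reads at 6.88, 5.84 and 5.53-fold, its narrowest peak was 581 bp and its summits fell within 12 bp. Regions of 667 bp on chromosome 1, 241587180 to 241587846, of 663 bp on chromosome 6, 6712052 to 6712714, and of 629 bp on chromosome 4, 15402530 to 15403158, had summits spread over 368, 253 and 257 bp. The narrowest of the 3 peaks in these regions spanned 341, 224 and 216 bp.

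The lowest folds belonged to regions over a high local background. A pair on chromosome 2, 89865212 to 89865489 and 89867171 to 89867518, lay 1682 bp apart. The second of them held 110, 106 and 95 reads, the most of any knockout-only region, over a background of 29.1, 32.5 and 28.2 reads, so that its fold was 3.69, 3.20 and 3.28. The first held 63, 84 and 65 reads at 2.83, 3.35 and 3.00-fold. A region on chromosome 6, 61911414 to 61911813, held 38, 46 and 37 reads at 2.88, 3.44 and 3.33-fold. Median background at knockout-only regions was 1.72, 1.65 and 1.60 reads, against 3.15, 2.67 and 2.80 at regions held by all 6 lists, and it was 5 or more in every knockout list in 5 of the 229. The remaining regions of lowest fold were on chromosome 13, 114100196 to 114100549, chromosome 14, 107282562 to 107282967, and chromosome 9, 66455207 to 66455753, each within 3 kb of a parent peak, at 2724, 916 and 1302 bp.

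Knockout-only regions were found on 22 of the 23 chromosomes examined. Another knockout-only region lay within 20 kb for 4 knockout-only regions, within 100 kb for 8 and within 1 Mb for 52. Such counts are not given for other classes or for an even spread, so whether the regions cluster was not tested. The pairs within 20 kb were that on chromosome 2 and one on chromosome 7, where 155142954 to 155143103 is followed by 155159545 to 155159839. The second member of the chromosome 7 pair held 11, 11 and 10 reads. No 3 regions lay within 20 kb of each other.

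The gene-rich chromosomes 17, 19 and 22, grouped because earlier results of these data singled them out, held few of the regions. They carried 4 of 229 knockout-only regions (1.75%, interval 0.681 to 4.40%), against 15 of 99 parent-only regions (15.2%, 9.40 to 23.5%) and 11.3% of all regions. Regions called in 3 of the 6 lists in a mixture of both genotypes, which resemble the knockout-only regions in width with a median of 389 bp, held 12.4% (11.1 to 13.7%) on these chromosomes. Among knockout-list peaks of 16 reads or fewer the share was 9.63%, 9.60% and 10.0% in KO-DMSO, KO-2h and KO-4h. The share over whole lists was 11.6%, 10.6% and 11.2% in the knockout libraries and 12.7%, 14.1% and 10.7% in the parent libraries. The higher share in P-DMSO and P-2h moves with the result, and its part was not tested. Without P-2h, 2.51% of 319 knockout-only regions lay on these chromosomes. The 319 hold all 229 regions and 90 others, as leaving out a parent list can only add regions. This recount therefore cannot decide the part of P-2h, and it leaves P-DMSO in place.

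The 4 regions on these chromosomes were of ordinary height or lower, with a lowest pileup of 9, 9, 12 and 9 reads in the order given here, against a median of 11 over the 229. Chromosome 17, 14331643 to 14331984, held 13, 11 and 9 reads in KO-DMSO, KO-2h and KO-4h. Chromosome 17, 63519562 to 63519790, held 12, 10 and 9 reads, and chromosome 17, 78863690 to 78863953, held 16, 13 and 12. The only region on chromosome 19, 38679513 to 38679853, held 10, 10 and 9 reads. Chromosome 22 held 0 of the 229, which allows a share of up to 1.31% (3 counts of 229), against 1.94% of all regions.

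Chromosomes 2 to 6, a range chosen after the values were seen, carried 97 of 229 knockout-only regions (42.4%, interval 36.1 to 48.8%), against 36 of 99 parent-only regions (36.4%, 27.6 to 46.2%) and 30.0% of all regions. Per region present, chromosome 5 had the highest rate, with 21 knockout-only among 1636 regions (1.28%, 0.841 to 1.95%), followed by chromosome 12 with 17 of 1562 (1.09%, 0.681 to 1.74%) and chromosome 4 with 17 of 1602 (1.06%, 0.664 to 1.69%). The lowest rate above 0 was that of chromosome 19, with 1 of 1514 (0.0661%, 0.0117 to 0.373%). Intervals of chromosomes 5, 12 and 4 overlap each other. These chromosomes and chromosome 19 were picked out as the extremes of the rates, so the gap between them carries no test.

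**Figure D3:**
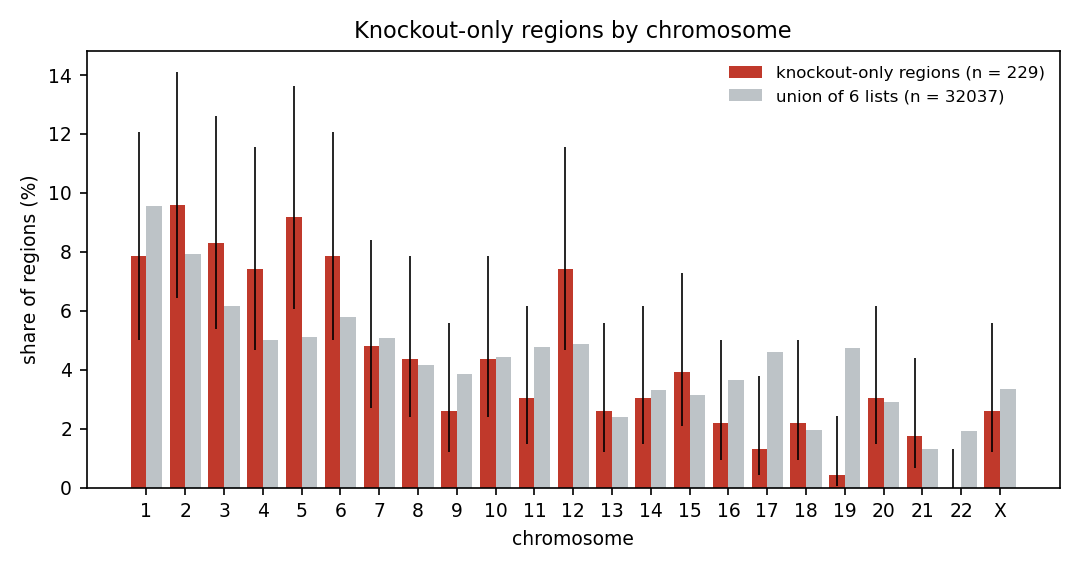
Share in percent of the 229 knockout-only regions (red, with Wilson 95% intervals for counting error, and for the count of 0 on chromosome 22 the limit of 3 counts) and of all 32037 regions (grey) on each chromosome. The red bars stand below the grey ones on chromosomes 17, 19 and 22, where they are 1.31%, 0.437% and 0%.

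Knockout-only regions lay where regions shared by all libraries were sparse. The median distance to the nearest region held by all 6 lists was 102613 bp, against 65738 bp for parent-only regions, 46951 bp for regions called in 3 lists of both genotypes and 52154 bp for all regions. Within 100 kb of such a shared region were 113 of 229 knockout-only regions (49.3%, interval 42.9 to 55.8%), against 63 of 99 parent-only regions (63.6%, 53.8 to 72.4%) and 71.5% (69.6 to 73.2%) of the regions in 3 lists of both genotypes. Within 500 kb to either side, knockout-only regions had a median of 3 shared regions, parent-only regions 5, and all regions 6. The nearest parent peak was a median of 34555 bp away, and 8 knockout-only regions had one within 1000 bp.

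**Figure D4:**
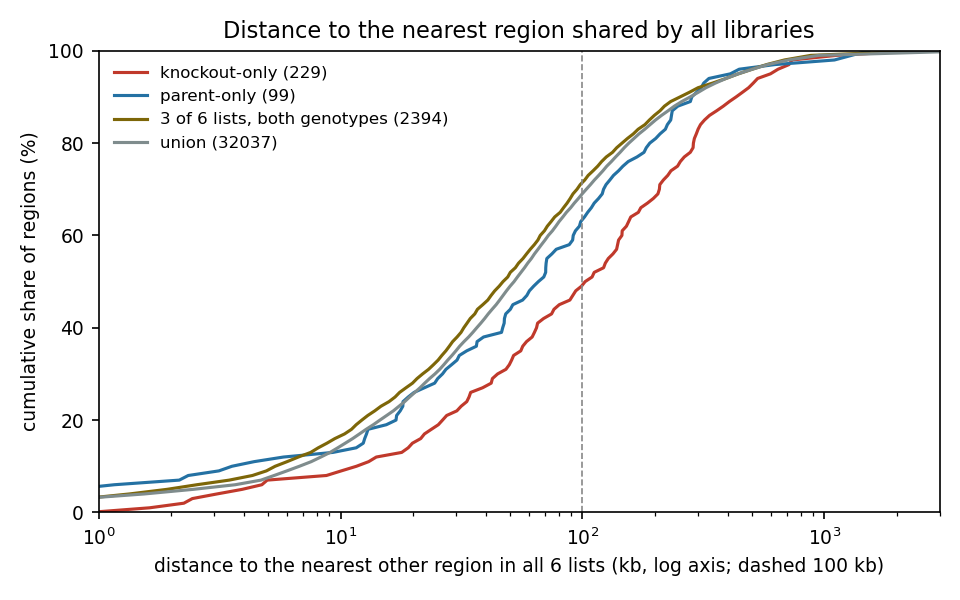
Cumulative share in percent of regions by distance in kb (log axis) to the nearest other region held by all 6 lists, for knockout-only regions, parent-only regions, regions called in 3 lists of both genotypes and the whole union. The knockout-only curve reaches 49.3% at 100 kb, where the parent-only curve stands at 63.6%, the curve of regions in 3 lists of both genotypes at 71.5% and that of the union at 69.0%.

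The 8 regions close to a parent peak include some that adjoin it. The nearest was 48 bp from a parent peak, on chromosome 18, 7775082 to 7775582, with 16, 14 and 14 reads. Others lay 92 bp away on chromosome 1, 180915657 to 180916221, and 151 bp away on chromosome 14, 90239406 to 90239905. With parent peaks required to be absent within 500 bp, 225 regions remained.

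Whether accessibility around these regions also differed was read from the regions held by all 6 lists, which play no part in the choice of members. Within 100 kb of a knockout-only region there were 192 such shared regions, beside 112 of the 229 when measured between midpoints. Median log2 pileup of the 192, centred in each library on the median of all 11070 shared regions, was -0.10, 0 and -0.06 in KO-DMSO, KO-2h and KO-4h, against -0.09, -0.42 and -0.07 in the corresponding parent libraries. Before centring, median pileups were 28, 24 and 25 reads in the knockout libraries and 46, 44 and 19 reads in the parent libraries. P-2h had the lowest value, and the other 5 overlap.

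The centred medians averaged -0.05 ± 0.05 in knockout libraries and -0.20 ± 0.20 in parent libraries (SD, n = 3 each), a difference of 0.14 on the log2 scale. An exact two-sided permutation test over the 6 libraries gave p = 0.3, where 3 against 3 libraries cannot go below 0.1, and libraries of a genotype differ in treatment, so their spread includes it. Paired by treatment as filed, knockout minus parent was -0.01 in DMSO, 0.42 at 2 h and 0.02 at 4 h. The mean thus rests on KO-2h and P-2h, which the codes would make the 4 h pair, and the sign is mixed. An exact sign-flip permutation test over these 3 pairs gave p = 0.5, and 3 pairs cannot go below 0.25. Without P-2h the difference was 0.03. Near parent-only regions the centred medians of 135 shared regions averaged 0.09 ± 0.03 in knockout libraries and 0.05 ± 0.06 in parent libraries (SD, n = 3 each), a difference of 0.04 (exact permutation p = 0.4).

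Every knockout library lay above every parent library, in centred log2 pileup, at 23 of the 192 shared regions near knockout-only regions (12.0%), against 6.25% of all 11070 shared regions. The reverse held at 10 of the 192 (5.21%), against 5.63%. The first of these neighbours by size of the difference was on chromosome 14, 67955019 to 67955731. It held 24, 22 and 30 reads in KO-DMSO, KO-2h and KO-4h, against 14, 14 and 10 reads in the parent libraries, although P-DMSO and P-2h had higher pileups than the knockout libraries over shared regions as a whole. The leading wide region on chromosome 7 had a shared region beyond its end, at 13889699 to 13890369, with 46, 34 and 39 reads in knockout libraries, against 36, 30 and 22 in parent libraries. These neighbours were picked out after their values were seen.

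**Figure D5:**
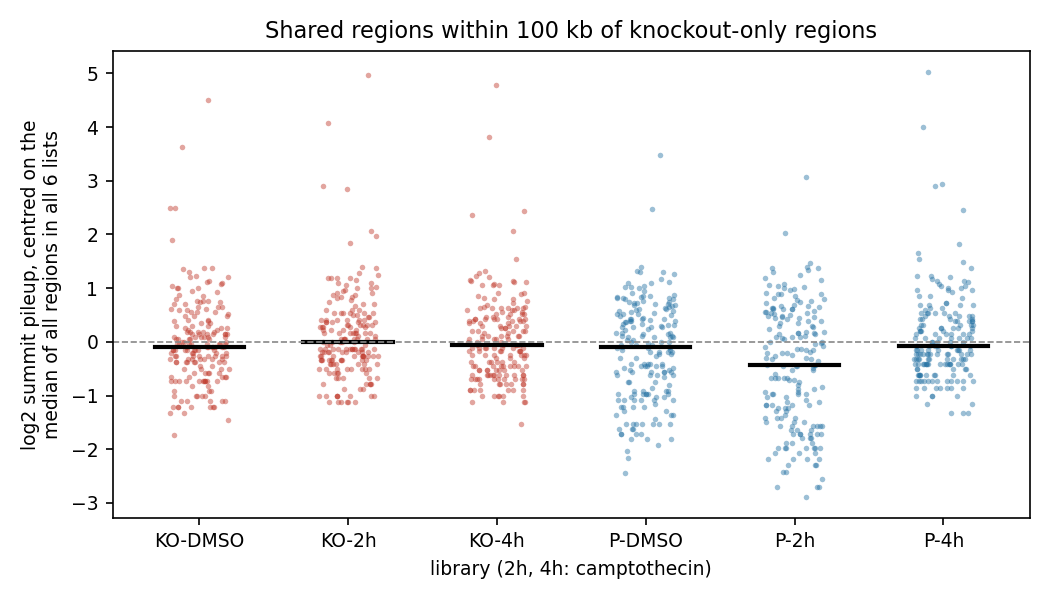
Log2 summit pileup of the 192 shared regions within 100 kb of a knockout-only region, centred in each library on the median of all regions held by all 6 lists, with 1 point per region and the median as a black line, for knockout (red) and parent (blue) libraries. P-2h has its median at -0.42 and the other 5 have theirs between -0.10 and 0.

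On chromosomes 17, 19 and 22, the 1294 shared regions had centred medians of -0.05, -0.06 and 0 in KO-DMSO, KO-2h and KO-4h, against -0.03, 0.20 and -0.07 in the parent libraries. The difference of the means was -0.07 (exact permutation p = 0.7). P-2h was the high value here and the low value near knockout-only regions.

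The edge of the rule runs through weak peaks. Of the 14141 regions with a peak in all 3 knockout lists, 229 had no parent peak (1.62%) and 456 had a peak in 1 parent list. Of these 456, the single parent peak was in P-DMSO in 294, in P-2h in 90 and in P-4h in 72. Its median pileup was 12 reads in each of these classes, the same as that of knockout-only regions in KO-4h. Of the 12154 regions with a peak in all 3 parent lists, 99 had no knockout peak (0.815%).

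Just outside, a region on chromosome 4, 10096591 to 10096820, was left out for a peak in P-4h with a -log10 q of 2.05, where lists end at 2.00, and had a lowest knockout fold of 4.03. A region on chromosome 3, 108476261 to 108476679, was left out for a peak of 2.11 in P-2h, with a lowest knockout fold of 4.66. Just inside, the region on chromosome 14, 90239406 to 90239905, held 22, 9 and 15 reads, and its weakest knockout peak had a -log10 q of 2.00. One on chromosome 11, 121453038 to 121453336, held 15, 8 and 14 reads and stood at 2.02. The lowest -log10 q was under 3 in 91 of the 229. A further 846 regions had peaks in 2 knockout lists and in no parent list, most often lacking KO-4h (347 of 846).

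Regions just outside were also few on chromosomes 17, 19 and 22, and lay between the knockout-only regions and all regions in distance. On these chromosomes lay 2.85% (interval 1.67 to 4.82%) of the 456 with 1 parent peak and 3.43% (2.40 to 4.88%) of the 846 with 2 knockout peaks. Within 100 kb of a region held by all 6 lists lay 59.6% (55.1 to 64.1%) of the 456 and 53.8% (50.4 to 57.1%) of the 846, at a median distance of 71106 and 89674 bp. For the 456 the distance values are nearer to those of parent-only than of knockout-only regions. Their share on chromosomes 17, 19 and 22 is nearer to that of knockout-only regions.

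Which regions qualify depends on the threshold more than their number does. With peaks of -log10 q of at least 5 alone, 128 regions met the rule, and 43 of the 229 were among them. The rule keeps those 43, as their 3 knockout peaks all reach 5 and no parent list has a peak there. The other 85 of the 128 overlapped a parent peak of the full lists that falls under the stricter threshold. The rule all but ensures this, as only a parent peak keeps such a region out of the 229. With all lists shortened to the 14205 most significant peaks, 192 regions met the rule, and 45 of the 229 were among them. The other 147 of the 192 overlapped a parent peak of the full lists. Both the 45 kept and this overlap again follow from the rule. Without P-4h, the shortest list, 301 regions met the rule, the 229 included. Chromosomes 17, 19 and 22 held 2.34% of the 128 and 3.12% of the 192.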

How the data were processed

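Peak lists of 6 ATAC-seq libraries were used, 1 per combination of genotype and treatment. Peaks were called per library, as the peak names of a list all bear the same code. MACS2 2.1.2 and BWA 0.7.17 on hg19, with Picard 2.9.2, SAMtools 1.8, Trimmomatic 0.39 and Trim Galore 0.6.2, are listed without roles per the submitters' processing notes. Read shifting, read extension and duplicate handling, which can move peak edges and numbers, are not given in the sources used. Fold enrichment, as deposited, was taken as the ratio of summit pileup to local background, with 1 read added to each. The score deposited by the authors is 10 times the -log10 q, truncated, for at least 99.97% of the entries of each list, and the deposited lists give -log10 p and -log10 q per summit and end at a q of 0.01.

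Entries on chromosomes 1 to 22 and X were merged within each list (Python 3.11.15, pandas 2.3.3, SciPy 1.17.1), keeping the highest fold. Lists were then merged by overlap of at least 1 bp. Positions are hg19, counted from 1. Pileup and background were solved from fold and p under a Poisson model, and at least 99.95% of pileups came out within 0.02 of a whole number. Recovery and the region rule were tested on simulated data. Shared regions near members were compared over libraries by an exact permutation test, and by pairs of the same treatment. Wilson intervals cover counting error only, as amplified reads and neighbouring peaks are not independent.

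Regions named are the 10 highest by lowest fold over the 3 knockout lists, the 10 highest of at least 300 bp, the 5 widest, the 5 lowest and those within 20 kb of another; others were named after their values were seen. The members, lists and settings were chosen with earlier results of these data known. Genes, motifs and sequences were not analysed here, as no hg19 genome was used.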

Additional observations from a re-analysis of the deposited data

How the results depend on the processing

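The number of knockout-only regions was 128 with a -log10 q of at least 5, 192 with lists of equal length, 222 when peaks had to share 50% of the shorter and 225 with no parent peak within 500 bp. Leaving out 1 library gave between 301 and 575 regions, with 433, 525 and 575 without KO-DMSO, KO-2h and KO-4h and 524 without P-DMSO, since fewer lists are then required. The share on chromosomes 17, 19 and 22 was between 1.35% and 4.00% over all these settings. The share within 100 kb of a region held by all lists fell to 34.4% with a -log10 q of at least 5, and was 49.9% to 56.5% with 1 library left out, the highest value being without P-DMSO. The share no wider than 170 bp was 1.34% to 5.74% with 1 library left out, and 51.1% when the narrowest of the 3 knockout peaks was measured.

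For the shared regions near knockout-only regions, the difference in log2 pileup was 0.22 within 50 kb, 0.07 within 500 kb, 0.07 with fold enrichment in place of pileup, and 0.03 to 0.21 with 1 library left out. Without centring it reversed to -0.40, as median pileups over all shared regions were 30, 24 and 26 reads in KO-DMSO, KO-2h and KO-4h and 49, 59 and 20 reads in P-DMSO, P-2h and P-4h. Recounts of the 3 shares were added after seeing the data. Pairing knockout and parent by treatment, also added after seeing the data, leaves the difference at 0.14 (exact permutation p = 0.5), carried by KO-2h and P-2h. Alternatives that need hg19 genes or sequence were not run. The lowest pileup of 8 reads limits what a list can hold, and 143 of the 229 knockout-only regions have their lowest pileup between 8 and 11 reads.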
